A study of Mus musculus with 33 samples.

Results

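The 34 genes described here encode enzymes and regulators of cholesterol and fatty acid metabolism, and they were chosen by symbol from 18849 genes listed in the count files. All 34 symbols were found. By role, 6 genes form the mevalonate path to farnesyl diphosphate (Hmgcs1, Mvk, Pmvk, Mvd, Idi1 and Fdps) and 10 lead from squalene to cholesterol (Fdft1, Sqle, Lss, Cyp51, Tm7sf2, Nsdhl, Hsd17b7, Ebp, Sc5d and Dhcr7). A further 3 are sterol regulators (Insig1, Srebf1 and Srebf2) and 5 synthesise or desaturate fatty acids (Scd1, Scd2, Fasn, Acaca and Acly). The remaining groups were 3 fatty acid elongases (Elovl5, Elovl6 and Elovl7), 2 enzymes of myelin lipids (Fa2h and Ugt8a), 3 enzymes that activate fatty acids by joining them to coenzyme A (Acsbg1, Acsl3 and Acsl6) and 2 dehydrogenases of mitochondrial beta-oxidation (Acadl and Acadm).

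The study profiled single cells of the mouse hippocampal neurogenic niche, the region where stem cells of the dentate gyrus give rise to new neurons. Cells were sorted by flow cytometry into wells, 1 cell per well, after neurons had been depleted, and transcripts were counted at their 3' ends with molecular barcodes (UMIs). All mice were labelled wild-type and C57BL/6, and the sort kept live cells negative for GluR1 and Cd24. The 31 niche libraries came from 5 experiments, and a single library came from mice older than 12 months, depleted of neurons in the same way. Another library held GFP+ hippocampal cells of NestinGFP mice, in which the Nestin promoter drives green fluorescent protein, so that it is a selected population and its label does not mention the depletion. The labels name no treatment. Neither the ages of the other mice nor the number of mice per experiment is given in the labels, so that spread between experiments may be partly technical.

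In the niche libraries, 1285 of 3840 wells held at least 1000 transcripts and were taken as cells, from 141 to 435 per experiment, with a median of 1943 to 12392 transcripts per cell. The Nestin-GFP library gave 315 such cells and the library of older mice 138. Experiment 2 consists of original libraries sequenced again, per the labels, and 8 libraries of experiment 3 had only 4 to 10 cells each and much spike-in RNA. No 2 wells of different libraries held identical counts. Cell classes were named from marker genes in clusters drawn on a random subset of the UMIs, without the 34 genes, and all levels below come from the UMIs that the clustering did not use, as the share of a gene in all counts of a class within an experiment, scaled to 1e+06 (CPM). Since the names came from these markers, high marker sums in the class so named follow from the naming and are no independent check. Summed astrocyte markers averaged 53501 CPM ± 8112 (SD, n = 5 experiments) in astrocyte-like cells and 817 CPM in mature oligodendrocyte-like cells. Summed mature oligodendrocyte markers averaged 103284 CPM ± 8409 (SD, n = 3) in their own class and 524 CPM ± 159 (SD, n = 5) in astrocyte-like cells. The stem cell-like class is closest to the astrocyte-like class. Hopx of the stem cell list and Mlc1 and Slc1a3 of the astrocyte list were among its 10 leading genes. Its summed stem cell markers averaged 6379 CPM ± 1980 (SD, n = 4) against 2496 CPM ± 638 (SD, n = 5) in astrocyte-like cells. Its summed astrocyte markers averaged 36218 CPM ± 6901 (SD, n = 4). The name came from a second naming step, in which the astrocyte name was not open. By the mean excess of a list's markers over the other clusters of that step, the astrocyte list scored 0.511 and the stem cell list 0.486.

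Cholesterol is made from acetyl-CoA through mevalonate, farnesyl diphosphate and squalene, and fatty acids are made by acetyl-CoA carboxylase and fatty acid synthase, then lengthened by elongases and desaturated by stearoyl-CoA desaturases. SREBP transcription factors, encoded by Srebf1 and Srebf2, switch these genes on when sterols are scarce, and Insig proteins hold SREBPs in the endoplasmic reticulum. The brain makes its own cholesterol; astrocytes supply it to neurons and oligodendrocytes use large amounts for myelin, whose glycolipids galactosylceramide and its hydroxylated forms are made by Ugt8a and Fa2h.

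Promoters of members are shown first because cholesterol synthesis genes share elements near their start sites: SREBPs bind sterol regulatory elements and act with the factor NF-Y, which binds the CCAAT box. RefSeq windows of 250 bases before an annotated start of a gene on GRCm38.p6 (mm10), the build of the files, were found for 28 of the 34 members and for 26997 other genes. The only window of Acaca (chr11:84195188-84195437, plus strand) lay inside its locus, which begins at 84129635, so that the bases before the locus were not searched. Fdps, Fdft1, Sqle, Scd1, Scd2 and Fa2h had no window in the table used. Both strands were searched for CCAAT and for the sterol regulatory element core TCACNCCAC, and no match of one overlapped a match of the other in the stretches printed here. A gene with more than 1 window was counted as holding a match if any of its windows did. Among members this concerns Pmvk, Dhcr7, Acsl6 and Srebf1, each of which also had a window without CCAAT. The CCAAT box was found in 21 of 28 members, 75% against 37.5% of the other genes. By role, all 5 mevalonate genes and all 8 later cholesterol synthesis genes with a window held it, as did the 3 sterol regulators and the 3 activation enzymes, but only Fasn of the 3 synthesis genes, only Elovl5 of the 3 elongases, and neither Ugt8a nor the 2 oxidation genes. TCACNCCAC was found in 1 member, Hmgcs1, or 3.57% against 1.22% of the other genes. A match is a run of letters, not a measured binding site.

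The stretches below reach from 20 bases before the first match to 20 bases after the last, as far as the window goes, and capitals mark the matches (CCAAT, or ATTGG on the other strand, and in Hmgcs1 also TCACCCCAC). They are a selection from members whose levels are compared below and whose windows held a match. Acsl3, Acsl6 and Srebf1, for example, are also compared and held CCAAT but are not printed. Compared members without a match, such as Acadl, Ugt8a and Elovl7, have no stretch, so the printed set does not show how common the matches are. The Hmgcs1 stretch lies at chr13:119690101-119690330 on the plus strand, Idi1 at chr13:8885541-8885605 on the plus strand, Cyp51 at chr5:4104702-4104746 on the minus strand, Fasn at chr11:120824582-120824657 on the minus strand, Elovl5 at chr9:77917274-77917364 on the plus strand and Acsbg1 at chr9:54661914-54661988 on the minus strand.
Hmgcs1: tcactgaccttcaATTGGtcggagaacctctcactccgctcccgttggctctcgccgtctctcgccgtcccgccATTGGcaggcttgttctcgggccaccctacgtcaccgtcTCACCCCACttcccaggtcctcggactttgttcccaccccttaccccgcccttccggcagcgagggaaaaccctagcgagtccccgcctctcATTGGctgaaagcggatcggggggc
Idi1: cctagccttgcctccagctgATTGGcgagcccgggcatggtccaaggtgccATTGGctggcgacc
Cyp51: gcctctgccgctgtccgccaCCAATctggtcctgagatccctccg
Fasn: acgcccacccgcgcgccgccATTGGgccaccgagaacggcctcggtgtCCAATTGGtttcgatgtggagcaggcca
Elovl5: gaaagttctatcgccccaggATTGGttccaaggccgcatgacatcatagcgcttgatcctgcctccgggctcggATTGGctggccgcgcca
Acsbg1: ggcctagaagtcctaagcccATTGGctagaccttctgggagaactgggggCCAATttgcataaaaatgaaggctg
The Hmgcs1 stretch holds 3 CCAAT matches and the single sterol core, Fasn holds 3 CCAAT matches of which 2 overlap on opposite strands, Idi1, Elovl5 and Acsbg1 hold 2 and Cyp51 holds 1.

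Across the niche, the 34 genes together were highest in mature oligodendrocyte-like cells and astrocyte-like cells and lowest in microglia-like cells. Their summed level averaged 13761 CPM ± 706 (SD, n = 3) in mature oligodendrocyte-like cells, 10613 CPM ± 1217 (SD, n = 5) in astrocyte-like cells and 8803 CPM ± 2030 (SD, n = 4) in stem cell-like cells. Oligodendrocyte precursor-like cells followed with 3767 CPM ± 272 (SD, n = 5), proliferating progenitor-like cells with 3309 CPM ± 787 (SD, n = 3) and neuroblast-like cells with 2674 CPM ± 632 (SD, n = 5). Lymphoid-like cells were at 1631 CPM ± 109 (SD, n = 3) and microglia-like cells at 923 CPM ± 71.7 (SD, n = 5). The ranges over experiments overlapped between astrocyte-like and stem cell-like cells, between precursor-like, proliferating and neuroblast-like cells, and not between any of these 3 and microglia-like cells. A CPM is a share of a class's transcripts, so a gene's lower value may come from fewer of its transcripts or from more transcripts of other genes.

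The 2 leading classes differed in how the groups made up those totals, though Scd2 was a large part of both. Cholesterol synthesis, the sum of its 16 members, had a lowest, median and highest value of 2698, 2875 and 3178 CPM over the 5 experiments of astrocyte-like cells. In mature oligodendrocyte-like cells, which had at least 5 cells in experiments 1, 3 and 5, the same sum ranged from 1430 to 1944 CPM, below every astrocyte-like value. Stem cell-like cells ranged from 1415 to 3174 CPM and overlapped both. Precursor-like cells held 649 CPM ± 43.9 (SD, n = 5) and microglia-like cells 276 CPM ± 74.2 (SD, n = 5). Fatty acid synthesis and desaturation had the opposite order, with 7238 CPM ± 530 (SD, n = 3) in mature oligodendrocyte-like cells and 2849 CPM ± 749 (SD, n = 5) in astrocyte-like cells. A single gene, Scd2, made up most of this sum in each of these classes. Its share was 88.9 to 94.1% in mature oligodendrocyte-like, 67.1 to 84.7% in astrocyte-like and 84.7 to 95.3% in stem cell-like cells. The order of the sum is thus that of Scd2, while Fasn of the same group was highest in astrocyte-like cells (343 CPM). The myelin lipid pair was at 2963 CPM ± 288 (SD, n = 3) in mature oligodendrocyte-like cells, 412 CPM ± 67.4 (SD, n = 5) in their precursors and 8.34 CPM ± 8.24 (SD, n = 5) in astrocyte-like cells. Fatty acid activation was at 3272 CPM ± 664 (SD, n = 5) in astrocyte-like cells, 2182 CPM ± 862 (SD, n = 4) in stem cell-like cells and at most 368 CPM in any experiment of mature oligodendrocyte-like cells. The elongases summed to 1196 CPM ± 19.7 (SD, n = 3) in mature oligodendrocyte-like cells against 709 CPM ± 129 (SD, n = 5) in astrocyte-like cells. The sterol regulators were at 420 CPM ± 64.8 (SD, n = 5) in astrocyte-like, 389 CPM ± 121 (SD, n = 4) in stem cell-like, 231 CPM ± 96.5 (SD, n = 3) in mature oligodendrocyte-like and 41.1 CPM ± 32.5 (SD, n = 5) in microglia-like cells. Oxidation was at 444 CPM ± 61.7 (SD, n = 5) in astrocyte-like cells, at 180 CPM ± 65.1 (SD, n = 3) in mature oligodendrocyte-like cells and at 110 CPM ± 33.5 (SD, n = 5) in microglia-like cells.

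**Figure D1:**
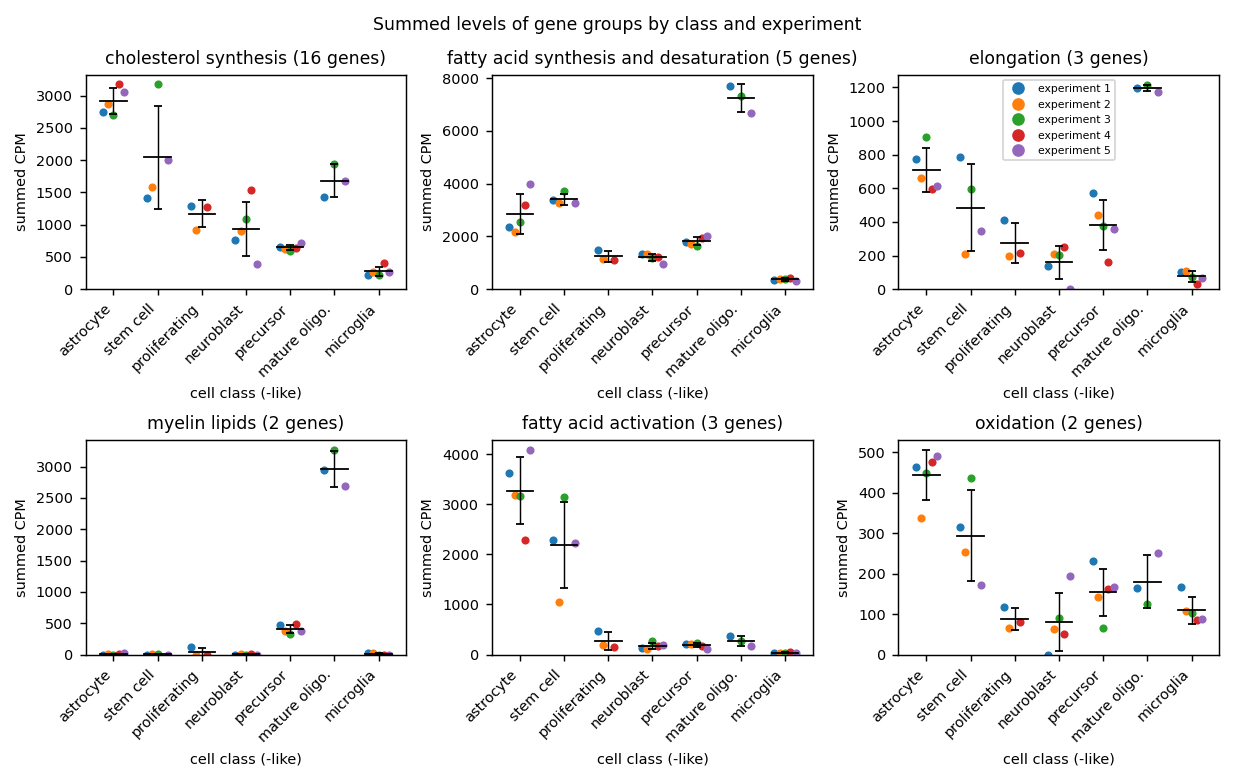
Summed level (CPM) of 6 groups of the 34 genes by cell class, each point 1 niche experiment, with bars for the mean and SD. Cholesterol synthesis and fatty acid activation stand highest in astrocyte-like cells (means of 2911 and 3272 CPM). Fatty acid synthesis and desaturation, elongation and myelin lipids stand highest in mature oligodendrocyte-like cells (7238, 1196 and 2963 CPM). The first of these sums is mostly the desaturase Scd2 (6675 CPM), while the synthase Fasn was highest in astrocyte-like cells (343 CPM).

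Gene by gene, the highest mean level among classes with at least 3 experiments was in astrocyte-like cells for 20 members, in mature oligodendrocyte-like cells for 9, in stem cell-like and lymphoid-like cells for 2 each and in neuroblast-like cells for 1. The astrocyte-like set holds all 6 mevalonate genes, namely Hmgcs1, Mvk, Pmvk, Mvd, Idi1 and Fdps, and 7 later cholesterol genes, namely Sqle, Cyp51, Tm7sf2, Nsdhl, Hsd17b7, Sc5d and Dhcr7. It also holds Fasn, Elovl5, the activation enzymes Acsbg1, Acsl3 and Acsl6, and both oxidation genes, Acadl and Acadm. Mature oligodendrocyte-like cells led for Lss, Ebp, Insig1, Scd1, Scd2, Elovl6, Elovl7, Fa2h and Ugt8a. Stem cell-like cells led for Fdft1 and Srebf1, lymphoid-like cells for Srebf2 and Acly, and neuroblast-like cells for Acaca. Many of these leads were smaller than the spread: Fdft1 was at 375 CPM ± 93.2 (SD, n = 4) in stem cell-like and 327 CPM ± 84.6 (SD, n = 5) in astrocyte-like cells, Dhcr7 at 138 CPM ± 32.5 (SD, n = 5) in astrocyte-like and 135 CPM ± 82.5 (SD, n = 4) in stem cell-like cells, and Lss at 64.03 CPM ± 74.2 (SD, n = 3) in mature oligodendrocyte-like and 61.6 CPM ± 60.8 (SD, n = 4) in stem cell-like cells. Clear of the next class by more than the 2 SDs added together were 7 genes: Scd2, Elovl7, Fa2h and Ugt8a in mature oligodendrocyte-like cells, and Acsbg1, Acadl and Tm7sf2, a sterol reductase, in astrocyte-like cells. Tm7sf2 was at 128 CPM ± 24.4 (SD, n = 5) in astrocyte-like and 78.6 CPM ± 18.01 (SD, n = 4) in stem cell-like cells.

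**Figure D2:**
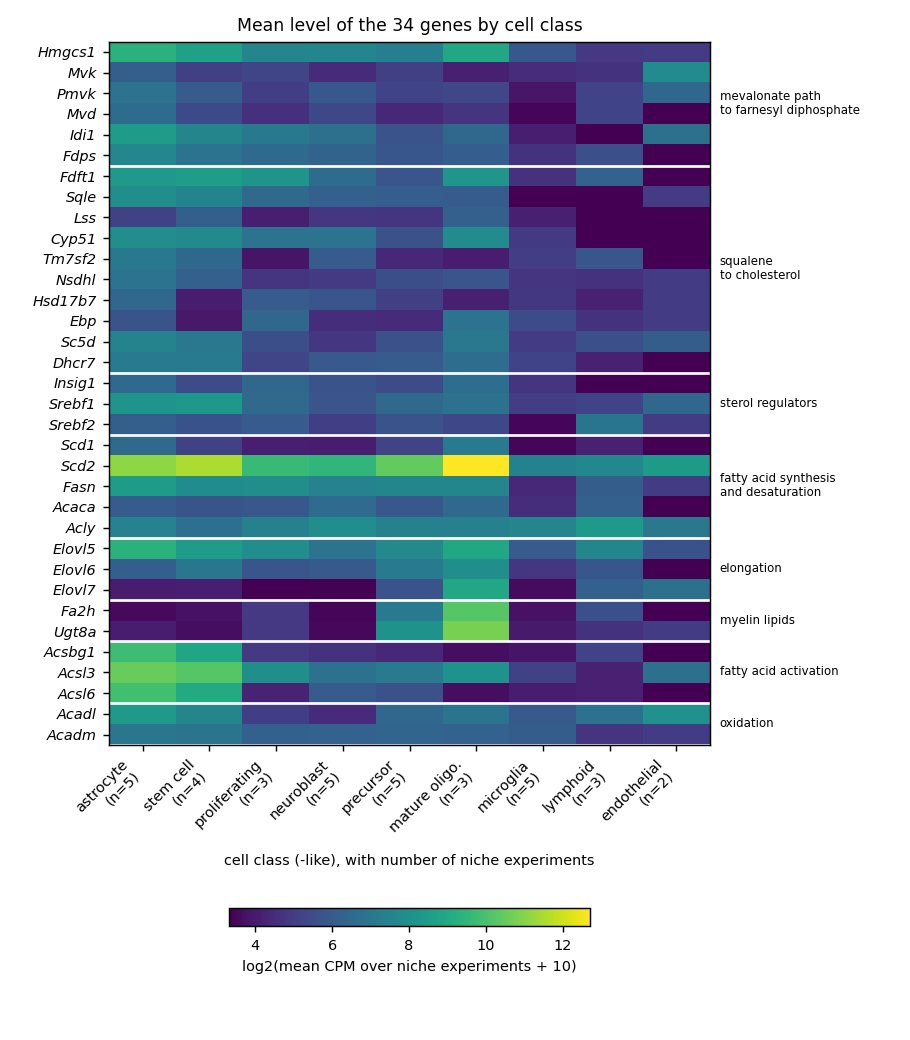
Heatmap of the mean level of each of the 34 genes (rows, ordered by role) in each niche cell class (columns), coloured by log2 of the mean CPM plus 10, brighter for higher levels. Scd2 is bright in most classes and brightest in mature oligodendrocyte-like cells (6675 CPM), Fa2h and Ugt8a are bright there, and Acsbg1, Acsl3 and Acsl6 in astrocyte-like and stem cell-like cells.

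Maturation in the oligodendrocyte lineage was addressed by comparing mature oligodendrocyte-like with precursor-like cells in experiments 1, 3 and 5, with edgeR's quasi-likelihood test, experiment as a block and Benjamini-Hochberg adjustment over all genes. The genes of myelin lipids, the elongase Elovl7 and the desaturase Scd2 were higher in mature cells. Fa2h, which hydroxylates fatty acids of myelin glycolipids, was at 1434, 1329 and 839 CPM in mature cells of experiments 1, 3 and 5 and at 187, 156 and 95.6 CPM in precursors. The lowest mature value was thus above every precursor value, and the log2 difference was 2.71 ± 0.34 (SE, adjusted p = 1.91e-14). Ugt8a, which makes galactosylceramide, was at 1509, 1932 and 1848 CPM in mature cells and at 292, 178 and 287 CPM in precursors. Its groups did not overlap either, and the log2 difference was 2.41 ± 0.31 (SE, adjusted p = 1.15e-13). Elovl7, an elongase of long-chain acyl-CoAs, was at 486, 462 and 504 CPM in mature cells against 70.6, 44.5 and 23.9 CPM in precursors, a log2 difference of 2.68 ± 0.42 (SE, adjusted p = 1.2e-09). Scd2, the main stearoyl-CoA desaturase of brain, was at 7259, 6520 and 6247 CPM in mature cells against 1431, 1171 and 1555 CPM in precursors. It was the highest of the 34 genes in both classes, and its log2 difference was 2.02 ± 0.41 (SE, adjusted p = 3.46e-06).

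Of the cholesterol path, Hmgcs1, which makes HMG-CoA at its entry, was at 329, 780 and 336 CPM in mature cells and 132, 245 and 120 CPM in precursors, with a log2 difference of 1.18 ± 0.36 (SE, adjusted p = 0.00263). Experiment 3 held the highest value of both classes. Elovl5, an elongase of polyunsaturated fatty acids, was at 475 CPM ± 32.6 against 220 CPM ± 45 (SD, n = 3) but did not pass (adjusted p = 0.0874). Elovl6, an elongase of saturated fatty acids, was at 238 CPM ± 60.7 against 170 CPM ± 58.1 (SD, n = 3; adjusted p = 0.86), and the 2 ranges overlapped. These 7 members passed the filter on low counts and 5 of them were higher, where 24.2% of 941 genes were. Since a member may pass the filter through the class where it is high, the fit was repeated without a filter: 9 of the 34 members were higher and none lower, against 3.14% of 13364 genes higher, adding Cyp51, Fdft1, Insig1 and Scd1. In that fit the median log2 difference was 1.06 over the 34 members and -0.70 over all genes. Among other genes of these pathways, Cers2, a ceramide synthase for very long acyl chains, was higher in mature cells by 3.01 (adjusted p = 3.82e-16) and Abca1, a cholesterol exporter, was lower (log2 difference -4.0, adjusted p = 1.92e-13). Hsd17b12, of elongation, was also lower (log2 difference -1.58), and Msmo1, of sterol demethylation, was higher (1.42).

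Within the precursor-like class, a cluster of 12 niche cells led by Enpp6 and Bmp4 lay between the main precursor clusters and the mature cells. Its Fa2h level was 341 CPM (95% Poisson interval 191 to 563), against 164 and 103 CPM in the precursor clusters of 193 and 71 niche cells and 1337 CPM in the mature cluster. Elovl7 was at 228 CPM (109 to 419) in these cells, against 48 and 24.9 CPM in the larger clusters and 454 CPM in mature cells. Ugt8a was at 479 CPM (297 to 732), against 274, 245 and 1630 CPM. Scd2 did not take a middle place: it was at 1527 CPM (1181 to 1943), against 1409 and 1269 CPM in the larger precursor clusters and 6923 CPM in mature cells. Intervals cover counting error only, the cells come from 3 experiments pooled, and clusters were drawn without these genes.

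**Figure D3:**
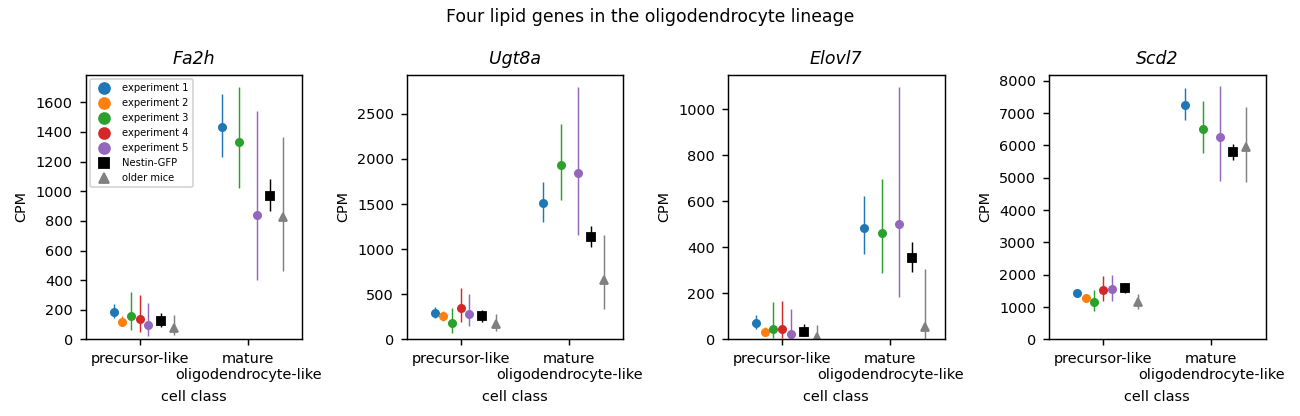
Level (CPM) of Fa2h, Ugt8a, Elovl7 and Scd2 in precursor-like and mature oligodendrocyte-like cells, each circle 1 niche experiment, with the Nestin-GFP library (square) and that of older mice (triangle), lines being 95% Poisson intervals. In the niche experiments all 4 genes are higher in mature cells, Fa2h for example at 839 to 1434 CPM against 95.6 to 187 CPM.

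Differences along the neurogenic lineage were addressed first by setting astrocyte-like against neuroblast-like cells over 5 experiments. The astrocyte-like class also enters the 4 comparisons that follow, so that these share its values. Of the neuroblast-like cells, all 27 of experiment 3 and 48 of 68 in experiment 4 were in 1 cluster, led by Rpl31-ps12 and Gm6654, which held 1 of 7 such cells of experiment 1, none of experiment 2 and 3 of 5 in experiment 5. Acsbg1, an acyl-CoA synthetase known from glia, was at 750, 997, 1073, 684 and 912 CPM in astrocyte-like cells of experiments 1 to 5 and never above 38.5 CPM in neuroblast-like cells. The log2 difference was 5.81 ± 0.40 (SE, adjusted p = 4.99e-45), and no other member tested differed more in this comparison. Acsl3, a long-chain acyl-CoA synthetase, was at 1680, 1387, 1389, 1011 and 1823 CPM against 106 CPM ± 56.5 (SD, n = 5), a log2 difference of 4.60 ± 0.36 (SE, adjusted p = 1.43e-34). Acsl6, another of that family, was at 1196, 811, 698, 598 and 1350 CPM against 55.1 CPM ± 38.4 (SD, n = 5), a log2 difference of 4.24 ± 0.35 (SE, adjusted p = 1.23e-31). Acadl, the long-chain acyl-CoA dehydrogenase, was at 283, 245, 368, 324 and 403 CPM against at most 27.9 CPM, with a log2 difference of 4.68 ± 0.44 (SE, adjusted p = 1.53e-25). For each of these 4 genes the experiments of the 2 classes did not overlap.

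The synthesis genes were also higher in astrocyte-like cells, by smaller amounts. Srebf1, which encodes the SREBP of fatty acid genes, differed by 3.22 ± 0.39 (SE, log2; adjusted p = 7.68e-16), from 276 CPM ± 52.9 to 45.1 CPM ± 33.4 (SD, n = 5). Elovl5 differed by 2.87 (adjusted p = 9.4e-19), Idi1, the isopentenyl diphosphate isomerase, by 2.61 (8.59e-12), Scd2 by 2.21 (2.7e-11), Fdft1, the squalene synthase, by 2.05 (1.22e-08) and Hmgcs1 by 1.97 (3.74e-10). The smallest called differences were those of Sqle, the squalene epoxidase, with 1.73, of Fasn, the fatty acid synthase, with 1.70 (6.07e-07), and of Cyp51, which removes a methyl group from lanosterol, with 1.54 (2.73e-05). Cyp51 passed in 16 of 18 alternatives and lost its call without a filter on low counts (log2 difference 1.14, edgeR adjusted p = 0.0881). All 13 were higher in 5 of 5 experiments. Acly, which makes cytosolic acetyl-CoA from citrate, was the exception among the members tested. It was at 113, 214, 204, 233 and 70.1 CPM in astrocyte-like cells and at 139, 324, 283, 217 and 195 CPM in neuroblast-like cells, higher in astrocyte-like cells in 1 of 5 experiments. It did not pass (edgeR log2 difference 0.34, adjusted p = 0.386), and its sign was the other one in 11 of 18 alternatives. Without a filter on low counts, Acaca (-0.43), Elovl6 (-0.19) and Acly (-0.12) had log2 differences below 0, and none of them passed. Neuroblast-like cells of experiments 1 and 5, with 7 and 5 cells, had no UMI of Hmgcs1 and Sqle, where the other experiments had 215 to 399 CPM and 77.1 to 153 CPM.

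In this comparison 13 of 14 members tested were higher, where 43.2% of 1458 genes were, and without a filter 21 of 34 were higher, against 7.29% of 15109 genes. The median log2 difference without a filter was 1.67 over the members and -0.19 over all genes. The balance over all genes was not stable: with trimmed-mean (TMM) scaling 630 genes were higher and 289 lower, and with scaling by library totals 389 were higher and 565 lower, with 12 members called. With TMM scaling and experiment 1, 3, 4 or 5 left out it was 448 and 502, 494 and 500, 355 and 386, or 560 and 608, with 13, 14, 12 and 16 members called. Of the other pathway genes, Msmo1 (log2 difference 4.27), Degs1 of ceramide synthesis (3.90), Crot of peroxisomal oxidation (3.81), Hacd2 of elongation (3.29) and Hadhb of mitochondrial oxidation (3.27) were higher in astrocyte-like cells, and all 5 tested of 29 oxidation genes beside the members were higher.

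Stem cell-like against astrocyte-like cells, in experiments 1, 2, 3 and 5, gave few called differences. Acsbg1 was at 472, 232, 673 and 458 CPM in stem cell-like cells, each below every astrocyte-like value, with a log2 difference of -1.11 ± 0.33 (SE, adjusted p = 0.0237). Elovl5 was at 550, 155, 496 and 229 CPM in stem cell-like cells and at 705, 644, 864 and 526 CPM in astrocyte-like cells, a log2 difference of -1.10 ± 0.34 (SE, adjusted p = 0.0374). Acsl6 was at 551, 233, 510 and 802 CPM against 1196, 811, 698 and 1350 CPM, a log2 difference of -1.0 ± 0.31 (SE, adjusted p = 0.0378). All 3 were lower in 4 of 4 experiments, yet these calls were not stable: without experiment 2 or without experiment 5 none of the members passed, and without a filter on low counts none of 34 passed, with 9 at an unadjusted p under 0.05. Scd2 was at 3208, 2770, 3145 and 2927 CPM in stem cell-like cells and at 1852, 1605, 1711 and 3387 CPM in astrocyte-like cells, higher in 3 of 4 experiments without passing the test (log2 difference 0.59, adjusted p = 0.124). The other members tested did not pass either: the log2 difference was -0.66 for Acadl, -0.57 for Idi1, -0.56 for Hmgcs1, -0.50 for Fasn, -0.46 for Acsl3, -0.41 for Cyp51, -0.26 for Sqle, 0.11 for Fdft1 and 0.23 for Srebf1, with adjusted p from 0.276 to 0.858. The 3 members called of 13 tested stand beside 7.32% of 1107 genes lower. Without a filter the median log2 difference was -0.84 over the members and -0.07 over all genes, or -0.86 over the members when the member at 0 in 1 class was left out for want of a fold. Over all genes 43 were higher and 81 lower with TMM scaling, and 70 higher and 69 lower with scaling by library totals. Of the other pathway genes Hacd2 (-1.32), Hadhb (-1.30) and Msmo1 (-1.11) were lower in stem cell-like cells and Dbi, an acyl-CoA binding protein, was higher (0.88, log2 differences).

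Across glial lineages, precursor-like cells were lower than astrocyte-like cells in most members over 5 experiments. Among the lower members the activation enzymes differed most: Acsbg1 was at most 22.2 CPM in any experiment of precursor-like cells, against 684 to 1073 CPM in astrocyte-like cells, a log2 difference of -5.93 ± 0.36 (SE, adjusted p = 6.29e-17). Acsl6 was at 40.1 CPM ± 29.03 (SD, n = 5) in precursors, a log2 difference of -4.39 (adjusted p = 1.57e-15), and Acsl3 at 134 CPM ± 55.3 (SD, n = 5), a log2 difference of -3.46 (adjusted p = 3.16e-14). In the cholesterol path, Fdft1 was at 49.1, 39.3, 44.4, 68.9 and 23.9 CPM in precursors against 397, 398, 245, 225 and 368 CPM in astrocyte-like cells, with no overlap and a log2 difference of -3.01 ± 0.35 (SE, adjusted p = 2.08e-09). Idi1 differed by -2.64 (adjusted p = 3.64e-08) and Hmgcs1 by -2.11 (5.79e-09), also without overlap of the experiments. Srebf1 (-2.07), Acadl (-1.82), Elovl5 (-1.64) and Fasn (-0.84, adjusted p = 0.00736) were lower too, and Scd2 was lower by the smallest amount (-0.65 ± 0.19, SE, adjusted p = 0.00337).

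The myelin lipid pair went the other way: Ugt8a was at 292, 256, 178, 348 and 287 CPM in precursors, and astrocyte-like cells held 2 UMIs of it in all, a ratio of 49.8 (95% interval 13.6 to 414). Fa2h was at 187, 120, 156, 138 and 95.6 CPM in precursors and had 1 UMI in astrocyte-like cells, in experiment 4, a ratio of 54.1 (9.54 to 2153). Acly again did not pass (log2 difference -0.11, adjusted p = 0.81). Of 13 members tested, 1 was higher and 11 lower, where 26.6% of 1231 genes were higher and 26.1% lower, and without a filter 2 were higher and 21 lower of 34, against 5.71% and 5.74% of 15075 genes. The median log2 difference without a filter was -1.88 over the members and 0.23 over all genes. With TMM scaling 328 genes were higher and 321 lower, and with scaling by library totals 553 higher and 243 lower, with 10 members called. Under the latter Scd2 (log2 difference -0.26, adjusted p = 0.224) and Fasn (-0.45, adjusted p = 0.133) lost their calls. Thrsp, a regulator of lipogenesis (log2 difference -4.95), Msmo1 (-3.45), Hacd2 (-3.19), the fatty acid transporter Slc27a1 (-2.97) and Crot (-1.54) were lower in precursors as well.

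**Figure D4:**
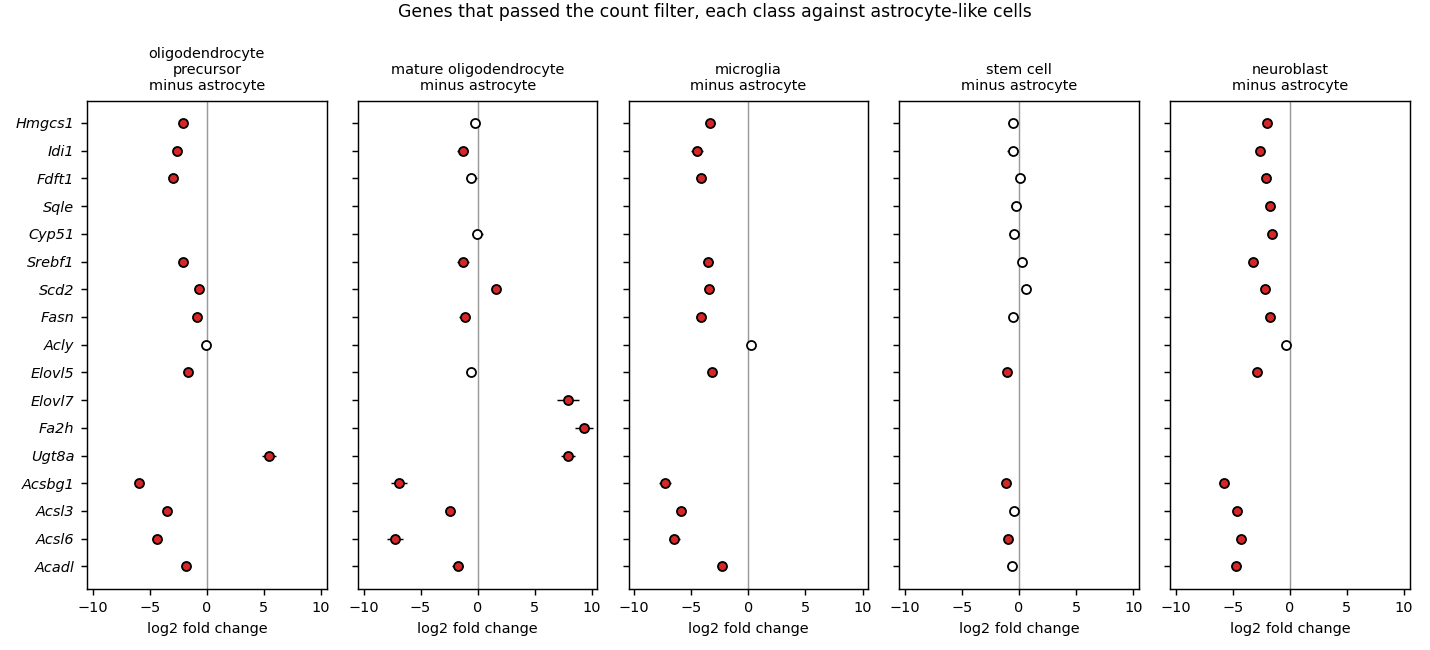
Log2 fold change ± SE (edgeR) of each member that passed the filter on low counts, in 5 classes against astrocyte-like cells, with filled points for members that passed the test. Acsbg1, Acsl3 and Acsl6 lie far below 0 in precursor-like, microglia-like and neuroblast-like cells, and Fa2h, Ugt8a and Elovl7 lie above 0 in mature oligodendrocyte-like cells, where their fitted values rest on at most 1 UMI in astrocyte-like cells.

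Mature oligodendrocyte-like against astrocyte-like cells, in experiments 1, 3 and 5, had members called in both directions. Direction did not follow role throughout: of fatty acid synthesis and desaturation, Scd2 was higher and Fasn lower. Fa2h and Elovl7 had no UMI in astrocyte-like cells of these experiments, so that against a floor of 3 counts over that group Fa2h was at least 90.4-fold higher and Elovl7 at least 32.2-fold higher in mature oligodendrocyte-like cells. Ugt8a had 1 UMI there, a ratio of 320 (95% interval 57.1 to 12698). Scd2 was at 7259, 6520 and 6247 CPM against 1852, 1711 and 3387 CPM, and the log2 difference was 1.63 ± 0.33 (SE, adjusted p = 2.28e-06). Conversely, mature oligodendrocyte-like cells held 1 UMI each of Acsl6 and Acsbg1, which were 202-fold (95% interval 35.8 to 7997) and 159-fold (28.1 to 6302) higher in astrocyte-like cells. Acsl3 was at 353, 271 and 168 CPM in mature oligodendrocyte-like cells against 1680, 1389 and 1823 CPM, a log2 difference of -2.43 ± 0.36 (SE, adjusted p = 6.03e-11). Acadl (-1.74, adjusted p = 0.000976), Idi1 (-1.30, 0.0135), Srebf1 (-1.30, 0.0227) and Fasn (-1.14, 0.0225) were lower by smaller log2 differences. These 4 calls were less stable: Acadl passed in 14 of 16 alternatives, Idi1 in 10 of 15, Srebf1 in 11 of 15 and Fasn in 8 of 16 (highest adjusted p of 0.0634, 0.212, 0.319 and 0.289). Without a filter on low counts these 4 and Scd2 (adjusted p = 0.1) did not pass.

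Beside Idi1, 3 members of the cholesterol path were tested: Hmgcs1 differed by -0.21 ± 0.37 (SE, adjusted p = 0.652), Cyp51 by -0.04 ± 0.48 (SE, adjusted p = 0.947) and Fdft1 by -0.54 ± 0.44 (SE, adjusted p = 0.288), and none of these passed, which does not show that their levels were equal. Cyp51 was at 195, 209 and 252 CPM in mature oligodendrocyte-like cells and at 192, 308 and 140 CPM in astrocyte-like cells of the same experiments, so that their ranges overlapped. Of 15 members tested, 4 were higher and 7 lower, where 30.2% and 31.1% of 1031 genes were. Without a filter 3 were higher and 5 lower of 34, against 2.87% and 4.5% of 12407 genes, among the latter Sqle and Tm7sf2 of the cholesterol path. The median log2 difference in that fit was -1.0 over the members and -0.41 over all genes, and setting Fa2h and Elovl7 to their lower bounds left the median over the members at -1.0. Msmo1 of the same path was lower (log2 difference -1.94, adjusted p = 6.36e-07). Elovl5 did not pass (-0.61, adjusted p = 0.14). Beside the members, Cers2 was higher (log2 difference 3.08), and Slc27a1 (-3.77), Hacd3 (-2.81) and Hacd2 (-2.52) were lower in mature oligodendrocyte-like cells. Thrsp had no UMI in mature oligodendrocyte-like cells and was at least 54.1-fold lower there.

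Microglia-like cells, the immune cells of the brain, were lower than astrocyte-like cells in all called members over 5 experiments. Scd2 was at 224, 193, 162, 114 and 139 CPM in microglia-like cells, far below the 1605 CPM of the lowest astrocyte-like experiment, and the log2 difference was -3.46 ± 0.36 (SE, adjusted p = 1.08e-08). Hmgcs1 was at 42.9, 79.9, 29.3, 57.3 and 34.8 CPM against 478 to 829 CPM, a log2 difference of -3.38 ± 0.35 (SE, adjusted p = 1.24e-08). Sqle had no UMI in microglia-like cells of any experiment. Acsbg1 had 2 UMIs there and was 227-fold higher in astrocyte-like cells (95% interval 62.4 to 1886), while Acsl6 differed by -6.48 (adjusted p = 8.32e-11) and Acsl3 by -5.94 (6.66e-11). Idi1 (-4.50), Fasn (-4.15), Fdft1 (-4.13), Srebf1 (-3.50), Elovl5 (-3.20) and Acadl (-2.32) were lower as well, each in 5 of 5 experiments. Acly alone of the tested members did not pass, at 182 CPM ± 66.4 against 167 CPM ± 71.2 (SD, n = 5; log2 difference 0.20, adjusted p = 0.587).

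Of 12 members tested, 11 were lower, where 34% of 1254 genes were, and without a filter 26 of 34 were lower, against 9.72% of 14470 genes. The median log2 difference without a filter was -3.22 over the members and -0.02 over all genes. Of 16 genes of cholesterol export, storage and turnover beside the members, 4 were tested and 3 were higher in microglia-like cells, where 496 of 1254 genes were higher. These were Abcg1, a sterol exporter (217 CPM ± 44.3 against 4.04 CPM ± 5.59, SD, n = 5, with 2 UMIs in astrocyte-like cells), Npc2 of lysosomal cholesterol release (log2 difference 1.26) and Abca1 (1.19). Msmo1 (-4.67), Dbi (-4.45), Slc27a1 (-3.51) and Thrsp (-3.13) were lower in microglia-like cells.

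The Nestin-GFP library, a single library without a replicate, had astrocyte-like, precursor-like, mature oligodendrocyte-like and neuroblast-like cells in sufficient number, and 15 of 136 levels of a member in a class had a Poisson interval outside the range of the niche experiments. No test was made, and the same count was not taken over all genes. The 15 levels therefore do not show whether these genes differed more often than others. Its 91 mature oligodendrocyte-like cells held 8 of these. Elovl5 was at 225 CPM there (95% interval 178 to 282, niche 439 to 503), Fdft1 at 79 CPM (52.1 to 115, niche 167 to 503), Cyp51 at 105 CPM (73.8 to 146, niche 195 to 252) and Hmgcs1 at 199 CPM (155 to 252, niche 329 to 780). Elovl7, Ugt8a and Scd2 were below the niche range as well, Scd2 with 5788 CPM (5535 to 6050) against 6247 to 7259 CPM, and Srebf1 was above it with 187 CPM (144 to 239) against 83.9 to 125 CPM. In its 92 astrocyte-like cells, Hmgcs1 was at 282 CPM (216 to 361), below the 478 to 829 CPM of the niche. Of these 92 cells, 54 were in a cluster that held 4 niche cells. Fa2h and Ugt8a were above the niche range in its astrocyte-like and neuroblast-like cells, and Elovl7 in the latter. With other settings Ugt8a in astrocyte-like cells stayed outside in 1 of 5, Fa2h in astrocyte-like cells in 4 of 5 and in neuroblast-like cells in 2 of 5, and Scd2 in mature oligodendrocyte-like cells in 2 of 4. In the same cells the summed mature oligodendrocyte markers were at 3238 CPM in astrocyte-like cells (niche 286 to 715) and 2647 CPM in neuroblast-like cells (niche 180 to 417), with 0 of 13 markers at 0. Their part in these values was not tested.

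**Figure D5:**
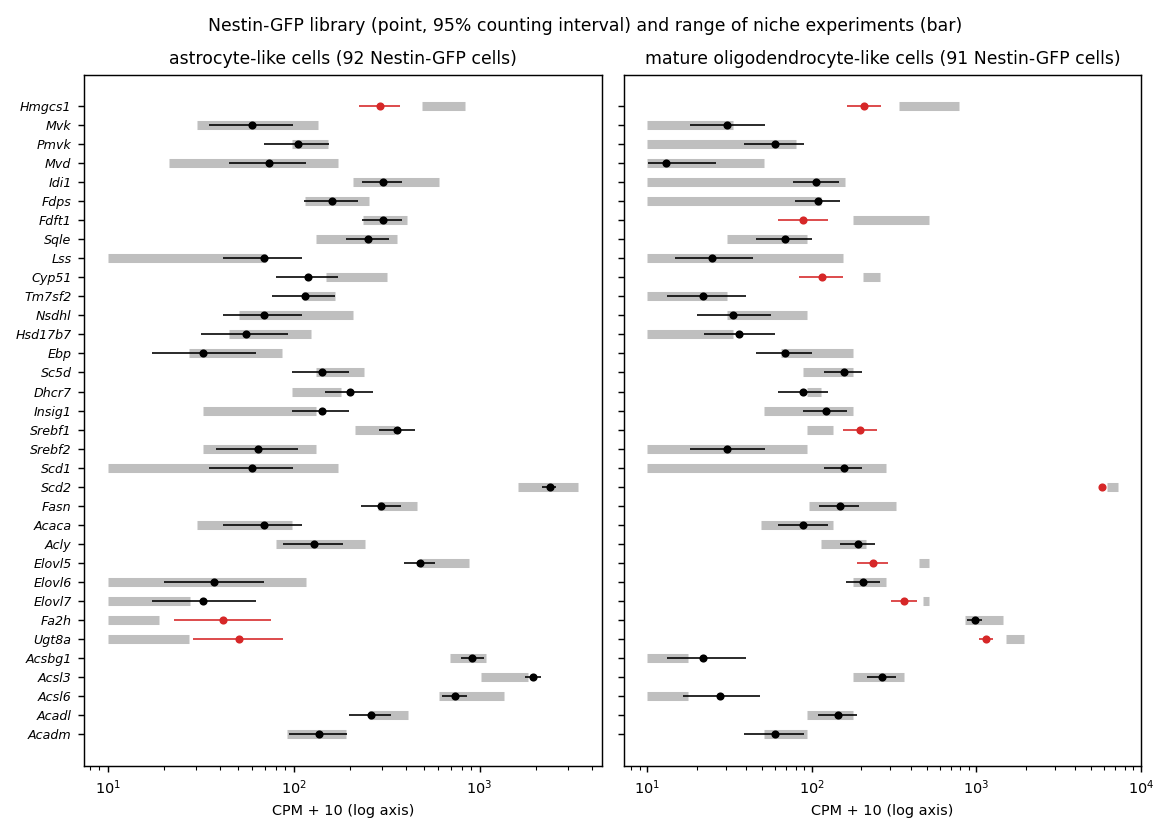
Level of the 34 genes in astrocyte-like and mature oligodendrocyte-like cells of the Nestin-GFP library (point with 95% Poisson interval, red where it lies outside the niche range) beside the range of the niche experiments (bar), on a log axis of CPM plus 10. In mature oligodendrocyte-like cells Hmgcs1, Fdft1, Cyp51 and Elovl5 lie below the niche range.

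From mice older than 12 months 138 cells were available. Of 204 levels, 8 had an interval outside the niche range, none of them in the 52 microglia-like or the 11 neuroblast-like cells. This count was not taken over all genes either. Neither the 8 levels nor their absence in microglia-like and neuroblast-like cells can thus be read as particular to these genes. Hmgcs1 had no UMI in 21 precursor-like cells, which allows up to 42.2 CPM, against 93.5 to 245 CPM in the niche. Scd1, a desaturase that makes oleic acid, was at 692 CPM (225 to 1614) in 7 astrocyte-like cells, against 0 to 163 CPM. In 5 mature oligodendrocyte-like cells Elovl7 was at 55.2 CPM (1.40 to 307) and Ugt8a at 662 CPM (342 to 1157), both below the niche. Lss, which closes the sterol rings, and Cyp51 had 3 UMIs each in 15 lymphoid-like cells, 71.4 CPM (14.7 to 209), where the niche experiments had none in 17446, 41058 and 8452 counts. Lss stayed outside in 5 of 5 alternatives and Cyp51 in 2 of 5. Any UMI lies outside such a range, so that these 2 values, from 3 UMIs each, cannot be read as a difference. With 1 library, age, library and animal cannot be told apart.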

How the data were processed

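The count tables were deposited by the authors as estimated counts per gene and well, that is, UMI numbers corrected for the chance that 2 transcripts carry the same barcode (256 or 4096 possible barcodes, as read from the values), with no scaling between cells. Per the submitters' processing notes, alignment used BWA 0.6.2-r126 and the build mm10. The annotation, the counting tool and their settings were not given in the sources used here. Counts come from 3' ends, so that a level does not scale with gene length, and reads shared by near-identical genes cannot be assigned. Spike-ins, mitochondrial rows (listed only in the tables of the older mice and of Nestin-GFP cells) and rows with no gene were left out. Symbols were merged between 21 libraries with older and 12 with newer names. Wells with at least 1000 transcripts were taken as cells, 1738 in all.

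A random draw split every cell's UMIs into 2 sets. Set 1, without the 34 genes and the genes of their pathways, drew the clusters (scanpy 1.11.5, 2000 variable genes, 30 components, 15 neighbours, Leiden resolution 1). Clusters were named from 191 markers in 17 lists, with thresholds set after the data were seen. Of the niche cells 1233 received a class, and 52 stayed unnamed. Set 2 gave all levels and tests. No doublet caller was run, since wells were sorted singly. In 121 cells at least 3 markers of a second class were found, and leaving them out is an alternative. Estimated counts were rounded and summed per class and experiment, classes with fewer than 5 cells in an experiment were left out, and pairs of classes were compared with edgeR 4.0.16 (quasi-likelihood F test, TMM, filterByExpr, experiment as a block, Benjamini-Hochberg over all genes tested, adjusted p under 0.05). The pairing by experiment comes from the sorts, each of which supplied both classes. Log2 differences are first class minus second. Poisson and ratio intervals are exact at 95%, and the floor is 3 counts. Intervals cover counting error only.

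The 34 genes and the pathway lists were chosen with earlier results of these data known. Named in each comparison were up to 14 members that passed and lay the same way in every experiment, up to 5 further pathway genes by size of change, and up to 6 members per single library. Members that did not pass were given with values only. Genes outside these rules (Fa2h, Npc2, Abca1 and Msmo1 beside their groups) were named after their values were seen. Tests were tried on simulated data. Alternatives were DESeq2 1.42.0, other counts, filters, clusters and cells, and each experiment left out. Leaving out the Enpp6-led cluster and scaling by library totals were added after the data were seen.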

Additional observations from a re-analysis of the deposited data

Results flagged for a closer look

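Of 110 sets of 4 or 5 niche experiments with at least 20 UMIs, 7 had an experiment apart from the others by Dixon's criterion, which chance alone gives for about 1 set in 20. In astrocyte-like cells the summed level of all 34 genes was 12746 CPM in experiment 5 and 9695 to 10364 CPM in the others, and the oxidation pair was at 336.6 CPM in experiment 2 and 449.5 to 490.7 CPM in the others. In microglia-like cells the genes from squalene to cholesterol summed to 315.7 CPM in experiment 4, from 11 UMIs, against 137.2 to 173 CPM, and the oxidation pair was at 167.3 CPM in experiment 1 against 85.74 to 106.7 CPM. Elovl5 had 0 CPM in the 5 neuroblast-like cells of experiment 5 against 127.2 to 150.5 CPM. Sqle had 0 CPM in the 7 precursor-like cells of experiment 4 against 66.76 to 82.84 CPM. Fasn was at 78.5 CPM in stem cell-like cells of experiment 1, from 1 UMI, against 254.3 to 286.2 CPM.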

How the results depend on the processing

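No called member changed sign under any alternative run, but counts and the split of higher and lower calls moved. Mature oligodendrocyte-like against precursor-like cells called 5 members, with 9 from all counts, 10 with all classes in 1 fit, 10 with at least 10 cells per class, 10 with at least 2000 transcripts per cell, 9 without a filter and 4 to 10 with 1 experiment left out. Fa2h, Ugt8a, Elovl7 and Scd2 passed in 17 of 17 alternatives and Hmgcs1 in 15 (highest adjusted p = 0.0709, edgeR). Astrocyte-like against neuroblast-like cells called 13, and 21 from all counts, with all classes and without a filter (12 to 16 with 1 experiment left out). Precursor-like against astrocyte-like cells called 12, and 21, 23 and 23 under these 3 settings (11 to 15). Microglia-like against astrocyte-like cells called 11, and 18, 22 and 26 (11 to 14). Mature oligodendrocyte-like against astrocyte-like cells called 11, from 8 to 12 with 1 experiment left out and 8 with DESeq2, and the 4 higher and 7 lower members became 4 and 4 with DESeq2 and 5 and 5 with at least 10 cells per class, at least 2000 transcripts per cell or without experiment 5. Oligodendrocyte maturation gained 1 lower call with all classes in 1 fit, and the stem cell-like comparison 1 higher call under scaling by library totals. Stem cell-like against astrocyte-like cells called 3, but 0 with DESeq2, 0 without a filter, 1 with at least 10 cells, 1 with a second random division and 0 to 5 with 1 experiment left out (0 without experiment 2, 0 without experiment 5, 1 without experiment 1). With no replicate block, that is without experiment as a term, this comparison called 0, and the other 5 in the order above 5, 13, 12, 11 and 10, so that 1 call was lost in the last of these and all 3 in the stem cell-like class. Acsbg1 passed in 9, Acsl6 in 10 and Elovl5 in 11 of 17 alternatives there, with highest adjusted p of 0.371, 0.355 and 0.392. The cause of these changes was not tested, except that without a filter more genes enter and that leaving out an experiment leaves fewer sums. Scaling by library totals moved the median of all genes by more than 0.1 on the log2 scale in all 6 comparisons, from -0.31 to -0.57, 0.50 to -0.37, 0.14 to 0.52, 0.25 to 0.05, 0.03 to 0.14 and 0.10 to -0.03 in the order oligodendrocyte maturation, neuroblast-like, precursor-like, microglia-like, stem cell-like and mature oligodendrocyte-like. The difference between the members' median and that of all genes was 2.33 and 2.31, 1.91 and 1.92, -2.21 and -2.20, -4.06 and -4.05, -0.52 and -0.53, and -0.71 and -0.72 under the 2 scalings. In the Nestin-GFP library 15 levels lay outside the niche range, and 6 with at least 2000 transcripts per cell. In the library of older mice 8 did, with 3 under that filter and 5 with a second random division. Depth limits classes of 5 to 10 cells.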

Other observations

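Proliferating progenitor-like cells, with at least 5 cells in 3 experiments, held cholesterol synthesis genes at 1167 CPM ± 209 (SD, n = 3) in sum, between astrocyte-like cells (2911 CPM ± 201, SD, n = 5) and precursor-like cells (649 CPM ± 43.9, SD, n = 5). Their activation enzymes were at 274 CPM ± 175 (SD, n = 3), a fraction of the 2182 CPM ± 862 (SD, n = 4) of stem cell-like cells. No test was made for this class. In lymphoid-like cells Acly, the ATP citrate lyase, was at 230, 244 and 473 CPM in experiments 1, 2 and 5, the highest mean of the 34 genes in that class, within a sum of 642.5 CPM ± 63.2 (SD, n = 3) for fatty acid synthesis and desaturation. Endothelial-like cells, with at least 5 cells in experiments 2 and 5 only, held mevalonate path genes at 249 and 588 CPM in sum and the oxidation pair at 208 and 353 CPM. These classes had 15 and 7 cells with 24060 and 8507 counts over all genes, so that each of these sums rests on few counts.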
